A study of Mus musculus with 6 samples.

Results

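The genes described here are 9 genes of the oligodendrocyte lineage, chosen by gene symbol as markers that run from the precursor cell to the first myelin: *Pdgfra*, *Cspg4*, *Olig1*, *Olig2*, *Sox10*, *Gpr17*, *Bcas1*, *St18* and *Mbp*. All 9 were found among the 59484 features of the deposited table, each on a single row, and all 9 were among the 18970 features with a mean normalized count of at least 10 that were tested. They were measured by RNA-seq of polyA+ RNA in the cortex of mouse embryos at embryonic day 18.5 (E18.5), in 3 wild-type libraries and 3 libraries of Sam68:Slm2 double knockouts (dKO), all on the C57BL/6 background. Both knockouts are constitutive, so each cell of a dKO embryo carried both, and the wild-type libraries carried neither deletion. The dKO embryos of the study came from intercrosses of *Sam68*+/-:*Slm2*-/- mice, a cross that gives no wild-type embryo, so genotype and litter cannot be told apart. The sex of the embryos was not given in the sources used here.

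Oligodendrocytes are the cells that wrap axons of the brain in myelin. Their precursors arise in the ventral forebrain and later in the dorsal one, spread through the cortex around birth, divide in response to platelet-derived growth factor, and then leave the cell cycle, pass through a short-lived committed stage and begin to make myelin proteins. At E18.5 the mouse cortex holds precursors, and most of its myelination lies after birth. In bulk tissue, fewer cells of a type and less RNA of a gene in each cell cannot be told apart, and the p-values below measure the spread between these 3 and 3 libraries.

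For 7 of the 9 genes (*Olig1*, *Olig2*, *Sox10*, *Pdgfra*, *Cspg4*, *Gpr17* and *Bcas1*) the dKO mean was between 43.0% (*Bcas1*) and 71.8% (*Cspg4*) of the wild-type mean, whereas *St18*, of the committed stage, and *Mbp*, of myelin, stood at 95.5% and 89.9%. The fitted log2 fold change (dKO minus wild-type, limma on log2 of the normalized count plus 1) was below 0 for 8 of the 9 genes, against 49.4% of the 18970 features tested, with a median of -0.67 over the 9 genes and 0.00 over all features. No member passed the test at an adjusted p under 0.05 with limma and Benjamini-Hochberg adjustment over all features (0 of 9), where 19 features, or 0.10% of those tested, did. At an unadjusted p under 0.05, 5 of the 9 genes (*Olig1*, *Olig2*, *Pdgfra*, *Gpr17* and *Bcas1*) were lower in the dKO, against 6.58% of all features, and 0 were higher, against 4.92%. Every dKO library lay below every wild-type library for 2 of the 9 genes (*Olig1* and *Gpr17*), against 8.48% of all features, and none of the 9 had every dKO library above, against 7.89%.

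Single libraries set much of these counts. Without wild-type replicate 1, the highest library for 8 of the 9 genes, 2 genes were lower in dKO at an unadjusted p under 0.05 (4.35% of all features), and 3 were so without wild-type replicate 3 (3.94%) or without dKO replicate 3 (4.08%). Without wild-type replicate 2, 7 genes were (8.51% of all features), and for 8 genes every dKO library lay below the wild-type libraries (17.4%). That count was 5 genes without dKO replicate 1 (14.0% of all features) and 4 without dKO replicate 2 (15.1%), the share over all features rising because fewer libraries are compared. On reads recovered from the normalized counts, edgeR called 0 members at the adjusted threshold, where 19 of the 18970 features passed. DESeq2 called 2 members, where 202 of the features passed. These 2 members were *Gpr17*, with an adjusted p of 0.0317 in DESeq2 and up to 0.743 over the other alternatives, and *Pdgfra*, with 0.0475 in DESeq2 and up to 0.777.

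The libraries held between 31837922 and 40896541 reads assigned to features, and 1 read was worth 0.877 to 1.16 normalized counts. The targeted genes followed the labels in each library. *Khdrbs1*, which encodes Sam68, had a mean normalized count of 8213 ± 232 (SD, n = 3) in wild-type and 152 ± 41.5 in dKO, and *Khdrbs3*, which encodes SLM2, had 13841 ± 1252 and 6652 ± 366 (limma, adjusted p = 1.08e-07 and 0.000855).

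*Olig1* and *Olig2* encode basic helix-loop-helix transcription factors, and *Sox10* an HMG-box factor that acts with them and later turns on myelin genes. *Olig1* (GSMG0015295, mm10 chr16:91269267-91271939, plus strand) had normalized counts of 7228, 4143 and 5243 in the wild-type libraries (replicates 1 to 3, the order used throughout) and 3403, 3696 and 2187 in the dKO libraries. The genotypes did not overlap, and the closest pair was wild-type replicate 2 and dKO replicate 2. The means were 5538 ± 1564 and 3095 ± 800 (SD, n = 3 each), with a log2 fold change of -0.84 (SE 0.25, 95% interval -1.42 to -0.26, limma, adjusted p = 0.345).

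*Olig2* (GSMG0015294, chr16:91225550-91228675, plus strand), the neighbour of *Olig1* on the same chromosome and required for the lineage to form, had 3171, 1986 and 2647 in wild-type and 1871, 1997 and 1108 in dKO. Here dKO replicate 2 exceeded wild-type replicate 2 by a small margin, and dKO replicate 3 stood apart below the other 5 libraries. The means were 2601 ± 594 and 1659 ± 481, and the log2 fold change was -0.67 (SE 0.25, 95% interval -1.25 to -0.09, limma, adjusted p = 0.394). *Sox10* (GSMG0014239, chr15:79154909-79165240, minus strand) had 207, 94.5 and 156 in wild-type and 103, 120 and 68.4 in dKO. For *Sox10*, wild-type replicate 2 lay below dKO replicates 1 and 2, so the genotypes overlapped. Its means were 153 ± 56.5 and 97.4 ± 26.4, with a log2 fold change of -0.61 (SE 0.31, 95% interval -1.29 to 0.07, limma, adjusted p = 0.478).

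*Pdgfra* encodes the receptor through which platelet-derived growth factor A drives precursor division. The gene (GSMG0029295, chr5:75152251-75198204, plus strand) had 861, 377 and 571 normalized counts in wild-type and 348, 392 and 228 in dKO. Wild-type replicate 2 fell between dKO replicates 1 and 2, and the other wild-type libraries lay above all dKO libraries. The means were 603 ± 243 and 323 ± 84.6, with a log2 fold change of -0.86 (SE 0.30, 95% interval -1.53 to -0.18, limma, adjusted p = 0.370).

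*Cspg4* encodes the NG2 proteoglycan, the surface antigen by which precursors are commonly identified. The gene (GSMG0039568, chr9:56865032-56899870, plus strand) had 475, 264 and 309 in wild-type and 280, 260 and 212 in dKO. Its wild-type replicate 2 again lay within the dKO range, and wild-type replicate 1 was far above the rest. The means were 349 ± 111 and 251 ± 35.0, with a log2 fold change of -0.44 (SE 0.21, 95% interval -0.91 to 0.03, limma, adjusted p = 0.462).

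The sequence just before the annotated start was available for *Olig2*, *Pdgfra* and *Cspg4*, 3 of the 9 genes, in the RefSeq promoter table (GRCm38.p6, the assembly of mm10). They are shown as the members for which the table held a promoter. Each window is on the plus strand and starts 250 bases before the RefSeq start. It ends at the last base before the gene's earliest start in the deposited table or in GENCODE M21, so that no annotated exon base of that gene is included. Features without a symbol span the *Olig2* window (GSMG0016071, chr16:91221821-91226954) and the *Pdgfra* window (GSMG0068234, chr5:75151789-75154648). For *Olig2* the GENCODE start lies upstream of the deposited one. Each window was searched on both strands for CANNTG, the E-box core bound by basic helix-loop-helix factors, and for ACAAT, a SOX core. Capitals mark the matches.
Olig2, chr16:91225300-91225456: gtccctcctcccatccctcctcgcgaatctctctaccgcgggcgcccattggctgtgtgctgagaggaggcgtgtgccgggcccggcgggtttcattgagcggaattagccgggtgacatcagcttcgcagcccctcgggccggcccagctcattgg
Pdgfra, chr5:75152001-75152250: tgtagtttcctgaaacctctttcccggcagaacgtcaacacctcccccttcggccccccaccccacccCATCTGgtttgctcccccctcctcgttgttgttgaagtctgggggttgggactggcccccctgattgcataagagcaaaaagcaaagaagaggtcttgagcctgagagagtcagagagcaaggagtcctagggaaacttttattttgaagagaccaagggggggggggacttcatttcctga
Cspg4, chr9:56864854-56865031: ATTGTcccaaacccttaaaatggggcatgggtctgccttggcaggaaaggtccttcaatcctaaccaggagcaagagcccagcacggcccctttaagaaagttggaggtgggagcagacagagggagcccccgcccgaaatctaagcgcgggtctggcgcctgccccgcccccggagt
The *Pdgfra* window held 1 E-box (CATCTG) and no ACAAT, the *Cspg4* window held 1 ACAAT on the minus strand, read as ATTGT, and no E-box, and the *Olig2* window held neither. Over 32851 RefSeq promoters cut to the same lengths, 66.2% held CANNTG in 250 bases, 21.4% held ACAAT in 178 bases, and 50.8% and 19.3% held the respective motif in 157 bases. The GC content of the windows was 66.9% for *Olig2*, 54.4% for *Pdgfra* and 60.7% for *Cspg4*.

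*Gpr17*, *Bcas1* and *St18* are known from precursors that have committed to differentiate and from newly formed oligodendrocytes. *Gpr17* encodes a G protein-coupled receptor that acts as a brake on maturation. The gene (GSMG0018805, chr18:31943000-31949636, minus strand) had 1585, 922 and 1133 normalized counts in wild-type and 699.7, 920 and 529 in dKO. The genotypes did not overlap by the narrowest of margins, between wild-type replicate 2 (921.6) and dKO replicate 2 (920.2). The means were 1213 ± 339 and 716 ± 196, with a log2 fold change of -0.76 (SE 0.23, 95% interval -1.29 to -0.23, limma, adjusted p = 0.343).

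*Bcas1* encodes a protein of early myelinating oligodendrocytes. It was the least abundant member (GSMG0023950, chr2:170346991-170427846, minus strand), with 102, 31.1 and 72.8 in wild-type and 33.6, 29.3 and 25.5 in dKO, the last of these from 22 reads. Wild-type replicates 1 and 3 stood above the other 4 libraries, which lay close together. The means were 68.6 ± 35.5 and 29.5 ± 4.03, and the log2 fold change of -1.04 had the widest error of the 8 genes below 0 (SE 0.41, 95% interval -1.95 to -0.14, limma, adjusted p = 0.394).

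*St18* encodes a zinc-finger transcription factor of the myelin transcription factor family, and is also known from neurons of ganglionic eminence origin. The gene (GSMG0000014, chr1:6487229-6860940, plus strand) had 217, 142 and 422 normalized counts in wild-type and 189.7, 364 and 191 in dKO. It was the only member for which wild-type replicate 3 and dKO replicate 2 were the highest libraries, and the genotypes overlapped broadly. The means were 260 ± 145 and 248 ± 100.1, with a log2 fold change of 0.01 whose 95% interval ran from -0.91 to 0.93 (limma, adjusted p = 0.995), and its sign turned with edgeR and DESeq2 on recovered reads (-0.07 each) and without wild-type replicate 1 (-0.05), wild-type replicate 2 (-0.35) or dKO replicate 2 (-0.30). The summed counts of 10 markers of ganglionic eminence cells and interneurons were also highest in wild-type replicate 3 (14536) and dKO replicate 2 (11868), against 8759 to 10083 in the other 4 libraries, and their part in the *St18* values was not tested.

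*Mbp* encodes myelin basic protein, which compacts the myelin membrane, and the same gene gives Golli transcripts from an upstream start that are also made in neurons. Counts of the whole gene (GSMG0018647, chr18:82475123-82585637, plus strand) do not separate these. *Mbp* had 668, 589 and 655 in wild-type and 592, 587 and 539 in dKO. The wild-type and dKO ranges overlapped between 589 and 592, and the 6 values spanned 1.24-fold, the narrowest span of the 9 genes. The means were 637 ± 42.4 and 573 ± 28.9, with a log2 fold change of -0.15 (SE 0.11, 95% interval -0.39 to 0.08, limma, adjusted p = 0.595). A two-sided exact permutation test of the means cannot go below 0.1 with 3 against 3 libraries, and gave p = 0.1 for *Olig1* and *Gpr17* and 0.2 to 0.8 for the other 7 genes.

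**Figure D1:**
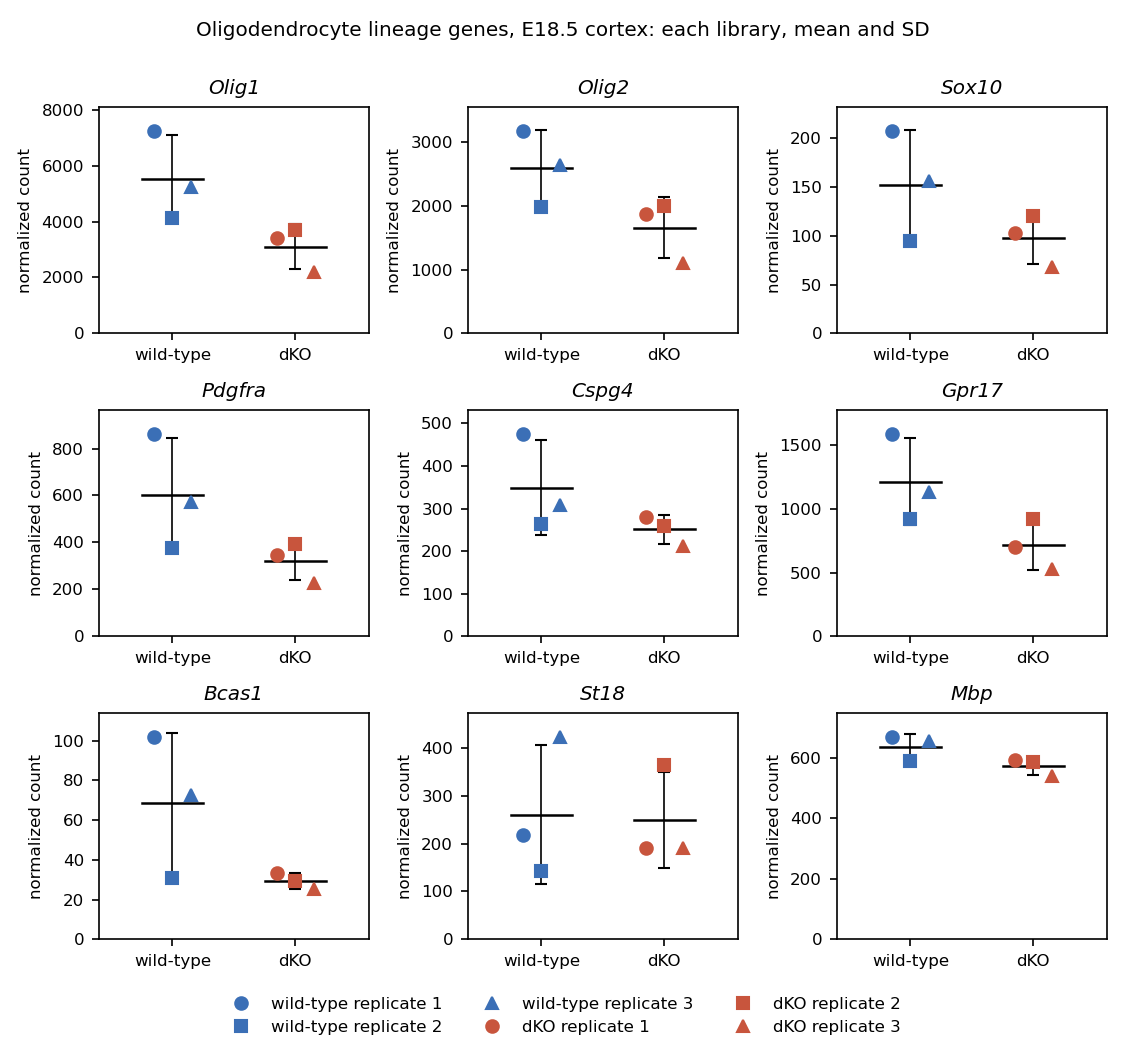
Normalized count of each of the 9 genes (vertical axis, from 0) in the 3 wild-type (blue) and 3 dKO (red) libraries, with the symbol giving the replicate number, the bar the mean and the error bar the SD (n = 3). Wild-type replicate 1 is the highest library in every panel but that of *St18*, and wild-type replicate 2 lies near or within the dKO values in most panels.

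Within a genotype, most members varied more between libraries than the median gene of like level. For *Olig1*, the SD of the log2 values was 0.40 in wild-type and 0.41 in dKO, where features with a mean within 1.5-fold of that of *Olig1* had median SDs of 0.09 and 0.10. For *Pdgfra* the SDs were 0.59 and 0.41 against 0.15 and 0.14, and for *St18* 0.79 and 0.54 against 0.19 and 0.18. *Bcas1* was more variable in wild-type (0.86 against 0.36) and less so in dKO (0.19 against 0.37). *Mbp* was the one member at or below the level of its peers in both genotypes (0.10 against 0.14 in wild-type, and 0.07 against 0.13 in dKO).

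This variation was largely shared between the genes. Wild-type replicate 1 was the highest and dKO replicate 3 the lowest of the 6 libraries for 8 of 9 genes, with *St18* the exception in both cases. Parts of this order were also seen in other cell types. Wild-type replicate 2 was the lowest wild-type library for 9 of 9 members, 8 of 10 radial glia and astrocyte markers and 7 of 8 endothelial markers. It was also lowest for 8 of 10 ganglionic eminence and interneuron markers and 4 of 4 tested erythroid markers. The mural, meningeal fibroblast and microglia lists each had it lowest for 6 of 8 markers. The counts were 3 of 10 for projection neuron and 1 of 3 for tested choroid plexus markers. In dKO, replicate 3 was lowest for 8 of 9 members, 9 of 10 radial glia and astrocyte, 6 of 8 endothelial and 6 of 8 mural cell markers. The counts were 4 of 8 for meningeal fibroblast, 3 of 10 for projection neuron and 2 of 10 for ganglionic eminence and interneuron markers. They were 0 of 8 for microglia and 0 for the tested erythroid and choroid plexus markers. Averaged over the 9 genes, the log2 deviation from each gene's mean over the 6 libraries was 0.68, -0.20 and 0.41 in wild-type replicates 1 to 3 and -0.21, -0.03 and -0.65 in dKO replicates 1 to 3. Wild-type replicate 2 was therefore at the level of the dKO libraries 1 and 2, and the wild-type replicates spanned a wider range than the gap between the genotype means. The ratio of wild-type replicate 1 to wild-type replicate 2 was 3.27 for *Bcas1*, 2.28 for *Pdgfra*, 2.19 for *Sox10* and 1.53 to 1.80 for *Olig1*, *Olig2*, *Cspg4*, *Gpr17* and *St18*, and 1.13 for *Mbp*.

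Closeness to the mean profile was measured, as a description over 6 libraries, by the root mean square difference of the centred log2 values. *Sox10* lay closest (0.093), followed by *Olig2* (0.12), *Gpr17* (0.14), *Olig1* (0.16), *Pdgfra* (0.18) and *Cspg4* (0.18). *Mbp* (0.33) differed by its flat profile, *Bcas1* (0.35) by its steeper one, and *St18* (0.53) by its order of libraries.

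**Figure D2:**
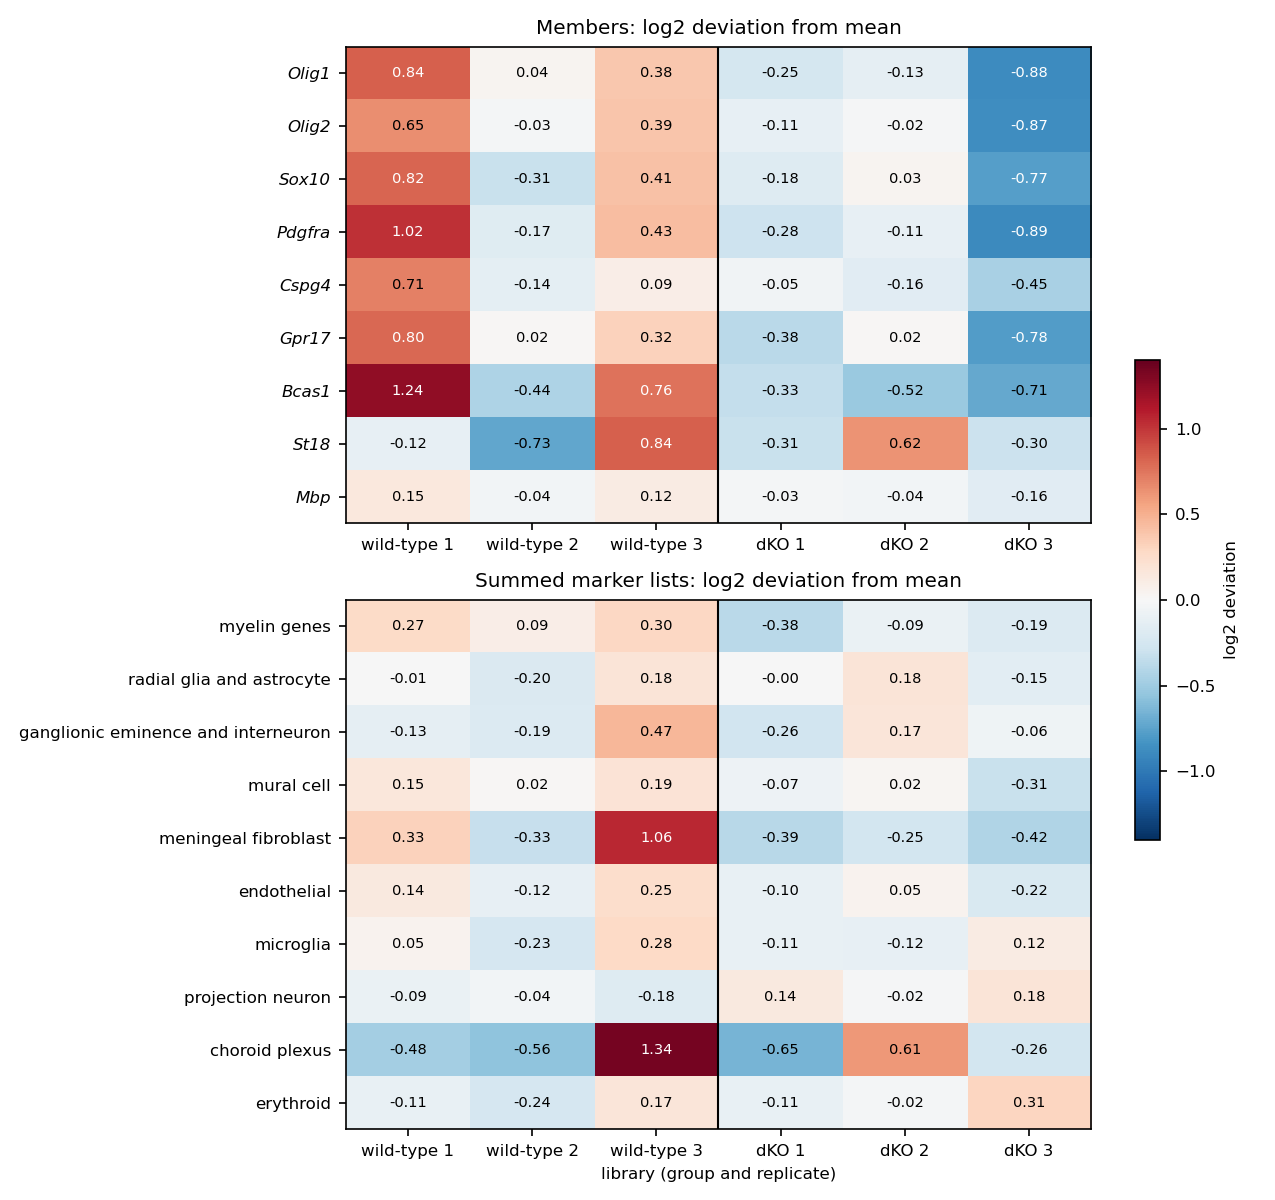
Log2 deviation of each library (columns) from the mean over the 6 libraries, for each of the 9 genes (upper panel, centred log2 of the normalized count plus 1) and for the summed normalized counts of the myelin list and of 9 marker lists of other cell types (lower panel), with red above and blue below the mean. The upper panel is red for most genes in wild-type replicates 1 and 3 and deepest blue in dKO replicate 3. In the lower panel, every sum but those of projection neurons and erythroid cells is highest in wild-type replicate 3. This is strongest for the choroid plexus and meningeal fibroblast sums.

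Ratios of 2 members within 1 library do not depend on the size factor. The *Olig1* to *Olig2* ratio of normalized counts was 2.28, 2.09 and 1.98 in wild-type and 1.82, 1.85 and 1.97 in dKO, a span of 1.25-fold while each gene spanned about 3-fold (3.30 and 2.86). The 2 genotypes did not overlap in this ratio, by a margin of 1.98 against 1.97. It was the only ratio given here without overlap, and the share over other pairs of genes was not computed. The *Gpr17* to *Pdgfra* ratio, which sets a committed-stage gene against a precursor gene, was 1.84, 2.44 and 1.98 in wild-type and 2.01, 2.35 and 2.31 in dKO, so the dKO values lay within the wild-type range. The *Sox10* to *Olig2* ratio ran from 0.0476 to 0.0654 over the 6 libraries, with its lowest and highest values both in wild-type. The *Cspg4* to *Pdgfra* ratio was 0.542 to 0.701 in wild-type and 0.664 to 0.929 in dKO, and the *Mbp* to *Gpr17* ratio 0.421 to 0.639 and 0.6375 to 1.02, each with a small overlap. The *Bcas1* to *Gpr17* ratio ranged from 0.0318 to 0.0642, and the *St18* to *Gpr17* ratio from 0.137 in wild-type replicate 1 to 0.395 in dKO replicate 2.

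Levels were compared between genes as normalized counts per kb of the union of annotated exons (GENCODE M21), a scale that understates genes whose long isoforms are little used. In wild-type cortex the mean levels per kb were 2561 for *Olig1*, 1028 for *Olig2*, 234 for *Gpr17*, 75.2 for *Mbp*, 60.1 for *Pdgfra*, 50.03 for *Sox10*, 40.2 for *St18*, 29.3 for *Cspg4* and 18.2 for *Bcas1*. The values of *Olig1*, *Olig2*, *Gpr17* and *Mbp* did not overlap between neighbours of this order, but from *Mbp* to *Bcas1* each gene overlapped the one above it. In dKO cortex the means per kb were 1432 for *Olig1*, 656 for *Olig2*, 138 for *Gpr17*, 67.6 for *Mbp*, 38.4 for *St18*, 32.2 for *Pdgfra*, 31.9 for *Sox10*, 21.04 for *Cspg4* and 7.80 for *Bcas1*. The order was the same but for *St18*, which stood above *Pdgfra* and *Sox10*, and neighbours overlapped from *St18* to *Cspg4*.

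**Figure D3:**
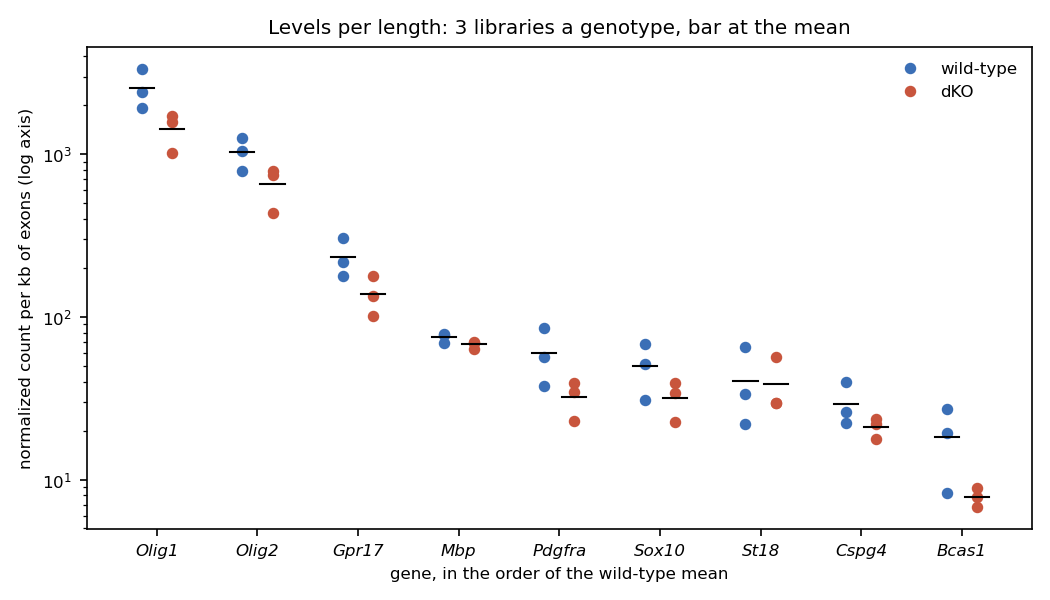
Normalized count per kb of annotated exons (log axis) of each of the 9 genes, ordered by the wild-type mean, in the 3 wild-type (blue) and 3 dKO (red) libraries, with bars at the means. *Olig1* is highest in both genotypes, at 2561 and 1432, and *Bcas1* lowest, at 18.2 and 7.80.

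Other genes of the lineage, with signals and inhibitors that act on it, were examined in 5 lists with 64 genes, 55 of which were tested. None passed an adjusted p under 0.05 with limma. With DESeq2 on recovered reads 1 did, *Cnp*, where 202 of the 18970 features passed. At an unadjusted p under 0.05 with limma, 9 were lower and 5 higher in dKO, the shares in all features being 6.58% and 4.92%. These counts totalled 7 without wild-type replicate 3 or without dKO replicate 3, and 8 without dKO replicate 1, in place of 14. The median log2 fold change of the 55 genes was -0.08, much closer to 0 than the median of the members (-0.67). By list the medians ran from -0.58 for myelin genes to -0.01 for signals and inhibitors. Several genes of these lists are also made by other cells, so the pooled median is not a value of the lineage alone. The lineage genes named in this and the next paragraphs are those with an unadjusted p under 0.05, the gene with the largest fold change of each list and, in all lists but that of transcription factors, the most abundant gene. *Ermn* is named for its part in a sum.

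Of 10 tested lineage transcription factors, 1 was lower and 2 higher, with a median log2 fold change of -0.03. *Nkx2-2*, a homeobox factor of the committed stage, had 80.8, 23.6 and 57.0 normalized counts in wild-type and 27.2, 22.0 and 22.0 in dKO, a log2 fold change of -0.99 (SE 0.44, limma, adjusted p = 0.423). As for *Bcas1*, wild-type replicate 2 was at the dKO level. *Sox5* and *Sox6*, SoxD factors that hold precursors undifferentiated and are also strongly expressed in cortical neurons and their progenitors, had log2 fold changes of 0.37 (SE 0.16) and 0.28 (SE 0.11, limma, adjusted p = 0.419 and 0.394), and every dKO library lay above the wild-type libraries for *Sox6*.

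Of 11 tested precursor genes, 3 were lower and 2 higher, with a median of -0.08. *C1ql1*, a secreted C1q-like protein, had 200 normalized counts in wild-type replicate 1, 156 in replicate 2 and 204 in replicate 3, against 105, 142 and 83.5 in dKO. The genotypes did not overlap, and the log2 fold change was -0.78 (SE 0.23, limma, adjusted p = 0.318). *Serpine2*, a serine protease inhibitor, had means of 1761 ± 516 and 1000.02 ± 264 (log2 fold change -0.80, SE 0.25, limma, adjusted p = 0.357), and *Lhfpl3*, a tetraspan membrane protein, 678.5 ± 194 and 451 ± 87.02 (-0.56, SE 0.22, limma, adjusted p = 0.396). The 2 genes with higher values were *Sox4* (0.33, SE 0.11) and *Sox11* (0.30, SE 0.13, limma, adjusted p = 0.357 and 0.413). These SoxC factors were the most abundant genes of the list and are known for their high expression in newborn cortical neurons. The summed counts of 10 projection neuron markers were also higher in dKO (291083 to 333399) than in wild-type (260772 to 286826). *Tubb3* alone made up much of these sums, with 137245 to 148988 in wild-type and 159016 to 166759 in dKO. *Neurod6*, the next most abundant marker, overlapped between genotypes (45180 to 66252 in wild-type and 48918 to 71754 in dKO). Of the 10 markers, 8 had a fitted fold change above 0 and 2 below. The part of projection neurons in the *Sox4*, *Sox11*, *Sox5* and *Sox6* values was not tested.

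Of 9 tested genes of committed and newly formed cells, 1 was lower and 0 were higher, with a median of -0.10. This gene was *Plekha1*, a phosphoinositide-binding adaptor, with means of 527 ± 11.3 and 431 ± 11.2 that did not overlap (log2 fold change -0.29, SE 0.11, limma, adjusted p = 0.382). *Itpr2*, an endoplasmic calcium channel that marks newly formed oligodendrocytes, had 274 ± 127 and 191 ± 23.7 (-0.42, SE 0.28), and *Fyn*, a kinase also abundant in neurons, 8987 ± 265 and 8897 ± 400.4.

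Of 13 myelin genes 8 were tested, with *Opalin* at 0 in all 6 libraries and *Mog*, *Mobp*, *Gjc3* and *Aspa* below a mean of 10. Their median log2 fold change was -0.58, with 3 genes lower and 0 higher. *Cnp*, an enzyme of uncompacted myelin that is made already in precursors, had 426, 303 and 389 normalized counts in wild-type and 236, 254 and 240 in dKO. The genotypes did not overlap, and the log2 fold change of -0.60 (SE 0.15, 95% interval -0.94 to -0.26) had the smallest adjusted p of all lineage genes examined (limma, adjusted p = 0.268). *Mal*, a proteolipid of myelin sorting, had 47.6, 60.15 and 54.4 in wild-type and 30.9, 20.9 and 39.4 in dKO, without overlap (-0.85, SE 0.32, limma, adjusted p = 0.386). *Mag*, an adhesion protein of the inner myelin layer, had 9.51, 33.3 and 36.8 in wild-type and 5.45, 12.5 and 6.96 in dKO, the last from 6 reads (-1.43, SE 0.60, limma, adjusted p = 0.404).

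Gene by gene, wild-type replicate 1 was the highest wild-type library for 8 of the 9 members but the lowest for 6 of the 8 tested myelin genes. The summed myelin list, to which *Mal* and *Mag* add little beside *Cnp* and *Ermn*, was 935, 826 and 952 in wild-type replicates 1 to 3 and 597 to 729 in dKO, with no overlap. *Ermn* had 207 to 318 in wild-type and 194 to 310 in dKO, with a log2 fold change of 0.03 (SE 0.21). Replicate 2 was the lowest wild-type library of this sum. Gene by gene, it was so for 1 of the 8 tested myelin genes, against 9 of the 9 members.

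Of 17 tested genes of signals and inhibitors, 1 was lower and 1 higher, with a median of -0.01. *Pdgfb*, a platelet-derived growth factor chain made mainly by endothelial cells, had means of 485 ± 10.9 and 385 ± 13.4 (log2 fold change -0.33, SE 0.11, limma, adjusted p = 0.357), and *Bmpr1a*, a receptor for bone morphogenetic proteins, 1064 ± 57.2 and 1235 ± 23.6 (0.22, SE 0.09, limma, adjusted p = 0.396). Neither gene overlapped between genotypes. *Lingo1*, a neuronal inhibitor of myelination and the most abundant gene of the list, had 10145 ± 407 and 9119 ± 576 (-0.15, SE 0.08), and *Hes5*, a Notch target, 1033 ± 360 and 702 ± 122 (-0.51, SE 0.25).

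**Figure D4:**
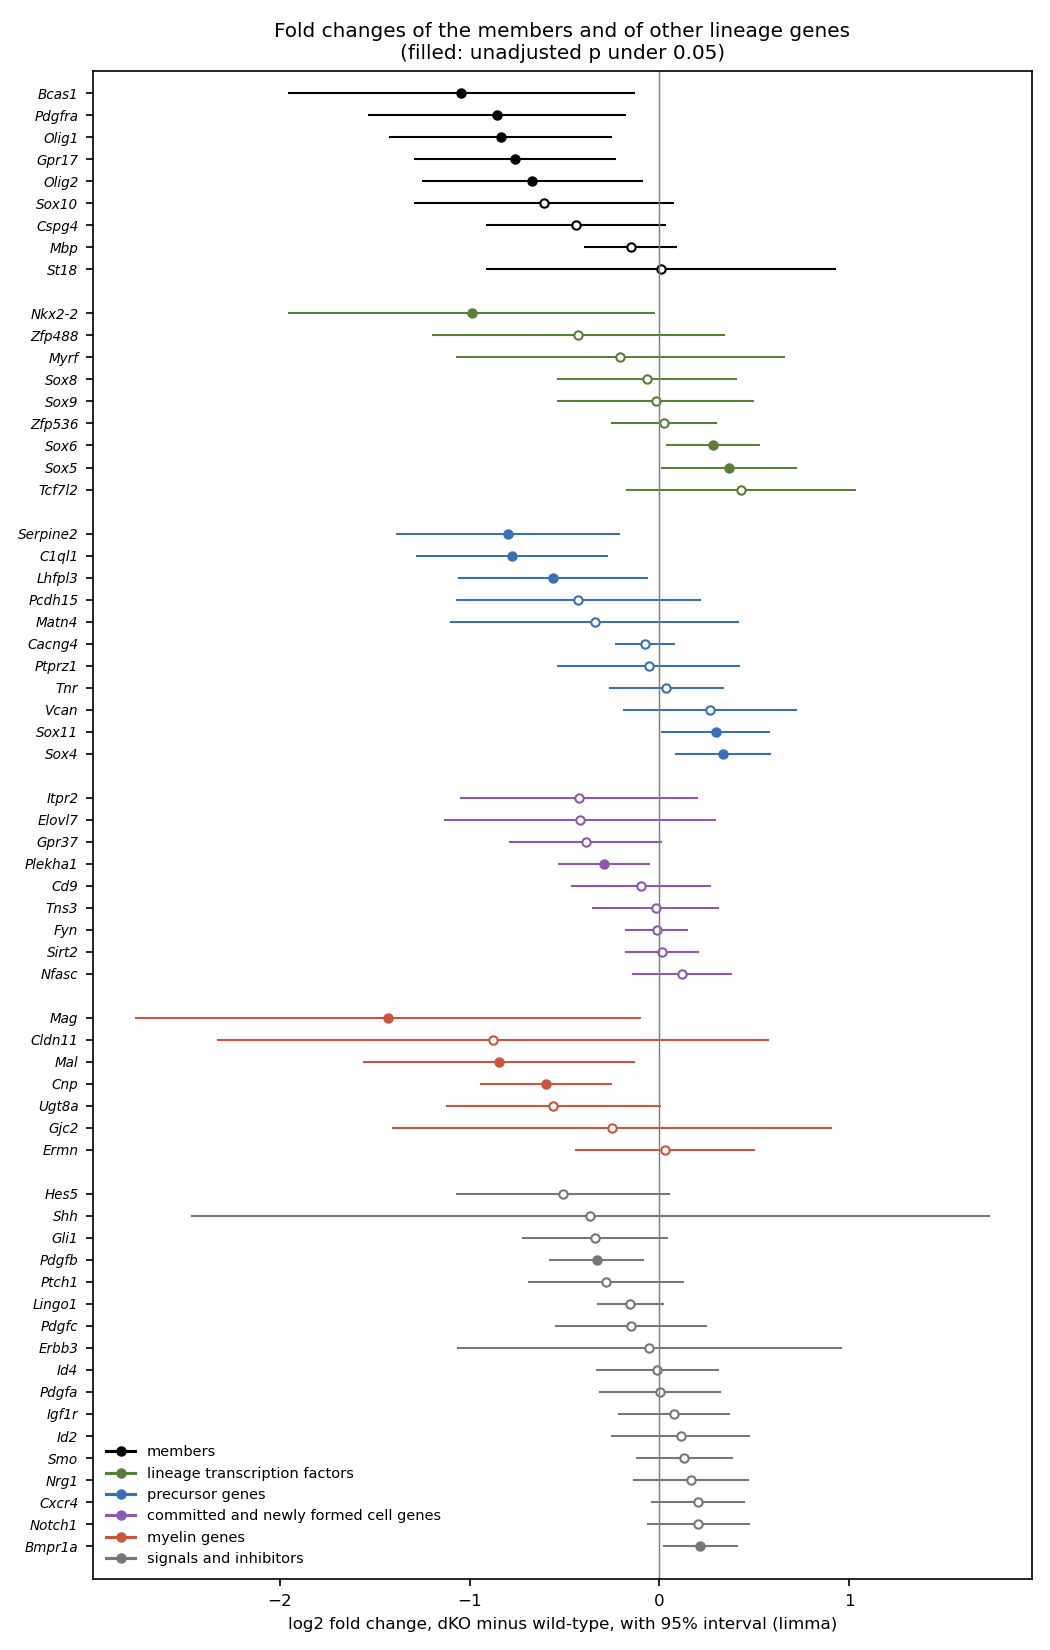
Log2 fold change (dKO minus wild-type, limma, with its 95% interval) of the 9 genes and of other tested lineage genes, coloured by list, with filled points for an unadjusted p under 0.05. The members, with a median of -0.67, lie left of 0 except *St18*, whereas the transcription factor, precursor, committed-cell and signal lists spread to both sides.

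Several members are also made by other cells of the dissected tissue, *Pdgfra* by meningeal fibroblasts, *Cspg4* by pericytes, and *Olig1* and *Olig2* by progenitors of the ganglionic eminences. The summed counts of 8 meningeal fibroblast markers were 735 to 1918 in wild-type and 690 to 773 in dKO, all 8 with a fitted fold change below 0 (3 at an unadjusted p under 0.05, median -0.73). Their highest library was wild-type replicate 3 (1918), with 1155 in wild-type replicate 1, whereas *Pdgfra* was highest in wild-type replicate 1. The 8 mural cell markers summed to 8710 to 9849 in wild-type and 6932 to 8751 in dKO, 1 of them lower at an unadjusted p under 0.05, with a median of -0.15 and the lowest sum in dKO replicate 3. The share of all features lower at this threshold was 6.58%.

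The 10 ganglionic eminence and interneuron markers, with sums of 9247 to 14536 in wild-type and 8759 to 11868 in dKO, had a median log2 fold change of 0.01 and none at an unadjusted p under 0.05. *Dlx1* (3379 to 5189) and *Sst* (1997 to 4924) made up much of these sums. Of the 10 markers, 5 had a fitted fold change below 0 and 5 above. The lowest was *Gsx2* (-0.38, SE 0.34), with 116 in wild-type replicate 1, its highest library, 114 in dKO replicate 2 and 48.7 in dKO replicate 3, its lowest. The 10 radial glia and astrocyte markers had sums of 45140 to 58816 and 46719 to 58556, a median of -0.15, and 1 gene higher at an unadjusted p under 0.05. Of these 10, 7 had a fitted fold change below 0 and 3 above. The lowest were *Aqp4* (-0.98, SE 0.55) and *Gfap* (-0.89, SE 0.51), which add little to the sums and overlapped between genotypes. The 8 endothelial markers had a median of -0.20 and 2 lower genes, the 8 microglia markers a median of 0.01 and 0 genes in either direction, and the 10 projection neuron markers a median of 0.22 and 5 higher genes. At the same threshold 6.58% of all features tested were lower and 4.92% higher in dKO. For choroid plexus, whose marker sums were 38.7 to 144 and 36.3 to 86.8, 3 of 8 markers were tested, and for erythroid cells 4 of the 5 found in the table, and 0 had an unadjusted p under 0.05. None of these markers was at 0 in all libraries, and the part of these cells in the members' values was not tested.

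Reads of overlapping features could have entered 5 of the 9 members, since 8 features of the table overlap them and the strand setting of the counting was not given in the sources used here. Of the 8, 2 had a mean of at least 10. A feature without a symbol (GSMG0016071, chr16:91221821-91226954) that runs over the start of *Olig2* had 97.0, 46.2 and 63.1 normalized counts in wild-type and 30.9, 51.2 and 25.5 in dKO (log2 fold change -0.92, SE 0.36). *Lims2* (chr18:31931506-31958619), which spans *Gpr17* on the opposite strand, had 119, 79.5 and 109 in wild-type and 73.5, 94.1 and 49.9 in dKO (-0.52, SE 0.28). Both were low beside the gene they overlap and were highest in wild-type replicate 1 and lowest in dKO replicate 3.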

How the data were processed

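Stranded libraries were made from the polyadenylated RNA of 6 cortices (3 wild-type, 3 dKO, E18.5) and sequenced as 150 bp paired-end reads. Per the submitters' processing notes, FastQC, Picard, SAMtools, STAR (version 2.7.5a), DESeq2 and the mm10 build were used. The counting program and its strand setting were not given in the sources used here. The deposited values are a signal, gene counts that the authors divided by a size factor for each library. Whole reads were recovered from the smallest step of each column, with 100.0% of values within 0.01 of a whole number. All 6 value columns were used, and groups came from the genotype labels.

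For the main test, log2(normalized count + 1) was fitted over 18970 features (mean normalized count 10 or more) with limma (version 3.58.1, R 4.3.3, trend and robust options), with Benjamini-Hochberg adjustment over all of them. Fold changes are on this scale, which understates those of low genes. edgeR (4.0.16, quasi-likelihood) and DESeq2 (1.42.0) on the recovered reads, other pseudocounts (0.1 and 10), filters and scalings, a block on the replicate number, and leaving out each library were alternatives. The limma script was tested on simulated data. Errors are SD over libraries, and PCR duplicates are not told apart from molecules.

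The 9 members and all gene lists were chosen with earlier results of these data known. Named were every member, the targeted genes, of each other lineage list the genes with an unadjusted p under 0.05, the most abundant gene and that with the largest fold change, and the 5 genes with the nearest library profile. *Ermn* and some markers of other cell types were named for their part in a sum or their fold change. Single values of 2 genes of the lists are not reported here.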

Additional observations from a re-analysis of the deposited data

How the results depend on the processing

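With 3 libraries a group and a wide spread within genotypes, the members' counts rest on few libraries. Over 17 alternatives, the median log2 fold change of the members kept its sign, from -0.92 (without wild-type replicate 2) to -0.40 (without dKO replicate 3). The cause of the shifts below was not tested. Members past an adjusted p of 0.05 were 0 in limma and edgeR fits and 2 with DESeq2. Members at an unadjusted p under 0.05 were 5, but 2 without the trend and robust options and 2 to 7 when 1 library was left out. Members whose genotypes did not overlap were 2, and 2 to 8 when 1 library was left out, all lower in dKO. The share of all features lower in this way was 8.48%, and 11.6% to 17.4% when 1 library was left out. Features past an adjusted p of 0.05 were 19, against 7 without trend and robust, 202 with DESeq2, 6 among features with a symbol only and 7 to 46 with 1 library left out, and features at an unadjusted p under 0.05 were 2181 (1219 to 2714 with 1 library left out). Other lineage genes past the adjusted threshold were 0, and 1 with DESeq2, and those at an unadjusted p under 0.05 were 14, with 7 to 18 when 1 library was left out. *St18* turned sign with edgeR (-0.065) and DESeq2 (-0.069), and ranged from -0.35 to 0.43 with 1 library left out. A mean filter of at least 50 removed *Bcas1*.

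The replicate numbers were not taken as pairs, since deviations of same-numbered libraries correlated at 0.098, -0.23 and -0.079. In the fit with a replicate block, 9 features and 0 members passed the adjusted threshold, and 5 members had an unadjusted p under 0.05, *Cspg4* now among them and *Olig2* not. Not every library correlated best with its own number.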

Other observations

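Outside the gene lists, the 5 named features whose centred log2 values lay closest to the mean profile of the 9 genes over the 6 libraries, among 12616 candidates with a mean of at least 50, were *Fam199x* (root mean square difference 0.0672), *Kcnf1* (0.0726), *Fam212b* (0.0726), *Cntn3* (0.0730) and *Enpp2* (0.0820). *Kcnf1* encodes a modulatory potassium channel subunit, *Cntn3* a contactin of the neuronal surface, and *Enpp2* autotaxin, a secreted enzyme made by choroid plexus and by cells of the oligodendrocyte lineage. *Enpp2* had wild-type normalized counts of 653, 386 and 501 and dKO counts of 340, 390 and 238, so dKO replicate 2 overlapped wild-type replicate 2. Its log2 fold change was -0.67 (SE 0.22, limma, adjusted p = 0.357), and those of the other 4 genes lay between -0.55 and -0.49. The likeness was the rule by which these genes were picked, so it is a description of these libraries.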
